A study of Arabidopsis thaliana with 4 samples.

Results

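The genes described here encode the proteins of the cytosolic ribosome of Arabidopsis thaliana. Members were the probe sets whose gene title in the deposited annotation names a 60S (large subunit) or 40S (small subunit) ribosomal protein and which the annotation assigns to exactly 1 nuclear locus. The rule gave 137 genes, each with 1 probe set, of 21226 genes with a probe set of their own. Of these, 80 belonged to the large subunit, for 38 different proteins, and 57 to the small subunit, for 29 proteins. No measured value entered the rule.

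Transcripts were measured on Affymetrix 3′ expression arrays in whole seedlings of the accession Columbia 0, aged 5 days. All seedlings grew on agar of 1/2 MS medium, a mineral medium for plant culture, with a little sucrose. The control group grew without ASP and the treated group with ASP, a piperazine that carries a bromophenoxyacetyl group and a fluorophenylsulfonyl group. Each group held 2 arrays that the labels call biological replicates, and the labels and headers state no dose of ASP. The labels state no number of seedlings per sample, and the p-values below measure only the spread among these 4 samples.

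A ribosome is built of ribosomal RNA and many proteins, which are assembled into a small and a large subunit in the nucleolus. The small subunit decodes the messenger RNA, and the large subunit forms the peptide bond. In Arabidopsis most of these proteins are encoded by more than 1 gene, and loss of single copies often gives narrow, pointed leaves and slow growth. Growing tissue makes ribosomes at a high rate, and the kinase TOR is a known regulator of that output in plants.

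Values are log2 signals per probe set. A log2 fold change is the ASP mean minus the control mean, and a probe set is called present where the deposited detection call says so. Signals of different probe sets depend on their oligonucleotides, so signals are compared between arrays and not read as relative transcript levels of 2 genes. The median log2 signal of the arrays ran from 7.503 to 7.530, and between 15075 and 15706 of 22746 probe sets were called present. Because whole seedlings were used, fewer cells of a type and less RNA per cell cannot be told apart.

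Most cytosolic ribosomal protein genes were among the brightest probe sets, and none passed the test. Of the 137 members, 125 were called present on all 4 arrays, 74 of the large and 51 of the small subunit. Their median log2 signal was 13.1, against 8.71 for the 14261 probe sets of the whole array with 4 present calls. In limma without an intensity trend, 0 of 137 members had an adjusted p under 0.05, and 0 of all 22746 probe sets did (percent called 0.0 in each direction). At an unadjusted p under 0.05 the same fit gave 0 members, where it gave 3.33% of all probe sets as higher and 4.09% as lower. With the intensity trend, limma called 0.149% of all probe sets higher and 0.167% lower, and again 0 members. At an unadjusted p under 0.05 that fit gave 5 members lower and 1 higher, against 4.78% and 4.69% of all probe sets. The authors' deposited table of 148 differing probe sets, 66 higher and 82 lower, held 0 members.

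Intervals taken gene by gene bounded the difference of most present members to within 2-fold. They are not joint intervals, and they rest on 2 arrays per group. With the intensity trend, the 95% interval of all 125 members present on 4 arrays lay within a log2 fold change of 1 in either direction, that is within 2-fold. Without the trend this held for 120 of 125. The median distance from a fold change to the end of its interval was 0.27 with the trend and 0.45 without it. In the present members 0 log2 fold changes were larger than 0.5 in size.

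In the large subunit, the means were slightly lower with ASP for most genes. Of 80 genes, 53 (66.2%) had a lower mean, with a median log2 fold change of -0.05. Over all probe sets 52.5% had a lower and 47.5% a higher mean, with a median of -0.02. The 74 large-subunit genes present on all 4 arrays ran from -0.38 to 0.19. Both ASP arrays lay below both control arrays for 30 of the 80 genes and above both for 4, where 20.9% of all probe sets did not overlap in the lower direction and 18.5% in the higher.

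In the small subunit, 41 of 57 genes (71.9%) had a lower mean with ASP, and the median log2 fold change was -0.08. The 51 genes present on all 4 arrays ran from -0.46 to 0.10. The arrays did not overlap in the lower direction for 11 of the 57 genes and in the higher for 2, against the same 20.9% and 18.5% of all probe sets. The share of small-subunit genes that did not overlap in the lower direction, 19.3%, was thus close to the background, and that of the large subunit, 37.5%, was above it. The difference between the subunits was not tested. Under quantile normalization the median was -0.11 in the large subunit, with 63 of 80 genes lower. In the small subunit it was -0.10, with 44 of 57 lower, so the gap between the medians was not there. The shares without overlap are not given for that setting.

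**Figure D1:**
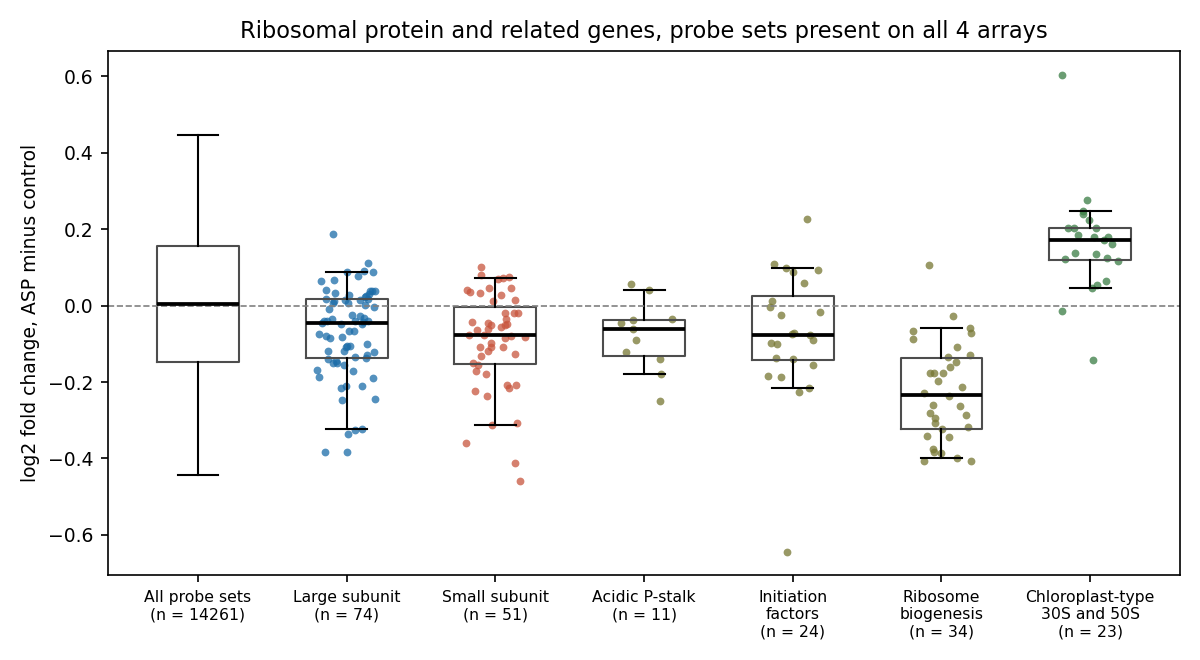
Log2 fold change (ASP minus control) of probe sets present on all 4 arrays, by gene group. Each point is 1 gene, boxes show the median and quartiles, whiskers the 5 and 95 percentiles, and all probe sets are shown as a box alone. The medians of both subunits lie just below 0, that of ribosome biogenesis genes lies lower, and that of chloroplast-type ribosomal proteins lies above 0 at 0.17.

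Among large-subunit genes present on all 4 arrays, L35a-1 (AT1G07070), one of the genes for ribosomal protein eL33, had the smallest unadjusted p. Its log2 signal was 10.91 and 10.96 in control and 10.54 and 10.69 with ASP. Both ASP arrays lay below both controls, with a log2 fold change of -0.32 (SE 0.146), an adjusted p of 0.75 in limma and of 0.381 with the trend. L17-1 (AT1G27400), a protein near the exit of the peptide tunnel, stood at 13.40 and 13.58 in control and at 12.99 and 13.22 with ASP. The groups did not overlap, and its log2 fold change was -0.38 (SE 0.174), with an adjusted p of 0.751 in limma.

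L7-1 (AT1G80750) had log2 signals of 11.15 and 11.34 in control and of 10.80 and 11.03 with ASP. L35-3 (AT3G55170), whose protein also sits near the tunnel exit, was at 9.40 and 9.38 in control and at 8.78 and 9.24 with ASP. L26-2 (AT5G67510), another tunnel exit protein, was at 13.42 and 13.27 in control and at 13.04 and 13.16 with ASP. In all 3 genes both ASP arrays were below both controls, with log2 fold changes of -0.32, -0.38 and -0.24. For L35-3 most of the difference lay on ASP replicate 1.

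In the opposite direction, L18A-1 (AT1G29970) had log2 signals of 9.61 and 9.50 in control and of 9.82 and 9.66 with ASP. Both ASP arrays were above both controls, with a log2 fold change of 0.19 (SE 0.153) and an adjusted p of 0.830 in limma. L38 (AT2G43460) was at 13.06 and 13.002 in control and at 13.15 and 13.14 with ASP, again without overlap, at a log2 fold change of 0.11. L35-4 (AT5G02610) was at 12.15 and 12.13 in control and at 12.21 and 12.23 with ASP, also without overlap. L36-2 (AT3G53740) and L36-3 (AT5G02450) had log2 fold changes of 0.08 and 0.09, and their arrays overlapped.

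Among small-subunit genes, S11-2 (AT4G30800) had the smallest unadjusted p. Its log2 signal was 10.38 and 10.24 in control and 9.62 and 10.09 with ASP. Both ASP arrays were below both controls, with a log2 fold change of -0.46 (SE 0.232), an adjusted p of 0.769 in limma and of 0.416 with the trend. S2-4 (AT3G57490), a gene for a protein near the entry of the messenger RNA channel, was at 11.43 and 11.50 in control and at 10.91 and 11.29 with ASP. The groups did not overlap, and its log2 fold change was -0.36.

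S27-1 (AT2G45710) was at 11.91 and 11.51 in control and at 11.37 and 11.44 with ASP, where the control arrays differed from each other by more than the ASP arrays did. RPSAb (AT3G04770), a gene for the SA protein of the small subunit, was at 10.53 and 10.68 in control and at 10.05 and 10.52 with ASP. S25-3 (AT4G34555) was at 10.63 and 10.54 in control and at 10.24 and 10.49 with ASP. In these 3 genes the groups did not overlap, but ASP replicate 2 lay only just below the lower control array. Their log2 fold changes were -0.31, -0.31 and -0.22.

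The small-subunit genes with higher means differed less. S30 (AT4G29390) was at 13.26 and 13.30 in control and at 13.33 and 13.38 with ASP. S24-2 (AT5G28060) was at 12.30 and 12.41 in control and at 12.42 and 12.43 with ASP. Both had groups that did not overlap, with log2 fold changes of 0.08 and 0.07. For S24-2 this was smaller than the difference between its control arrays. S3a-1 (AT3G04840), S9-1 (AT5G15200) and S28-1 (AT5G03850) had log2 fold changes of 0.10, 0.07 and 0.07, with arrays that overlapped.

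**Figure D2:**
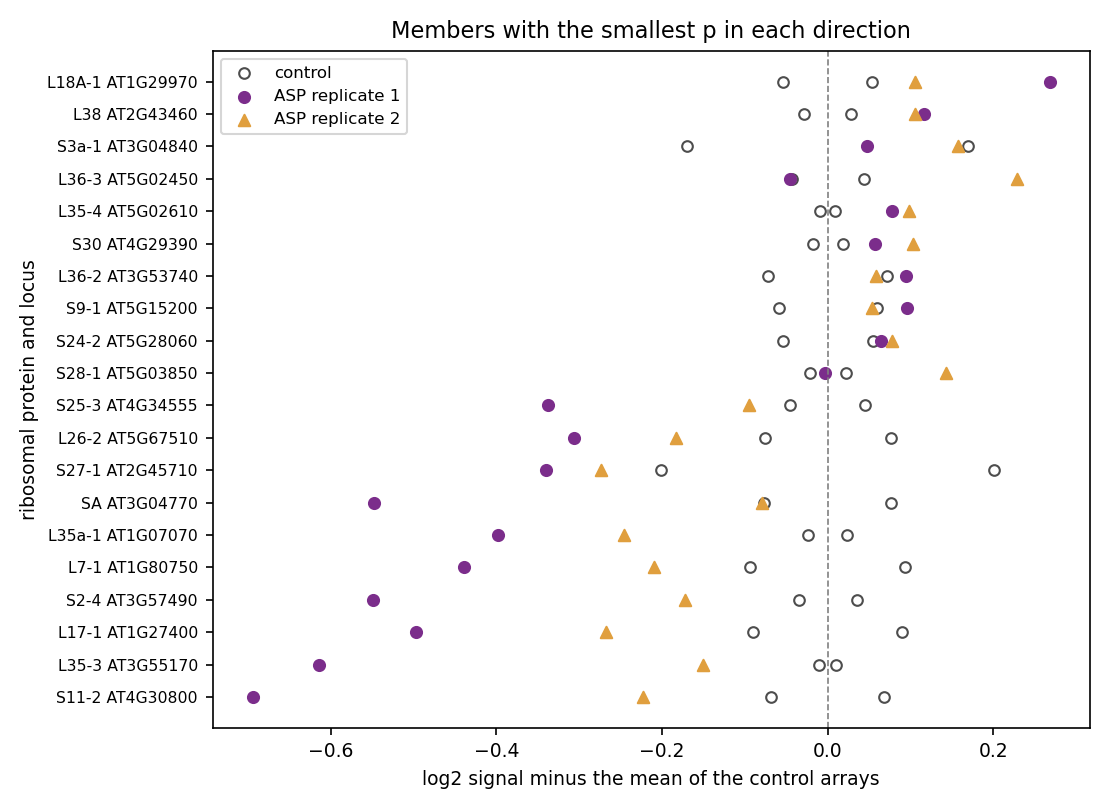
Log2 signal minus the mean of the control arrays (x axis) on each array, labelled by protein and locus. Shown are the members present on all 4 arrays with the smallest unadjusted p, 5 per subunit and direction. Open circles are the control arrays, filled circles ASP replicate 1 and triangles ASP replicate 2. In all 10 genes with lower means ASP replicate 1 lies farthest below 0.

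The lower means came mostly from 1 of the ASP arrays. On ASP replicate 1, 104 of the 125 present members lay below their control mean, and on ASP replicate 2, 65 of 125 did. The median difference from the control mean in the large subunit was -0.10 on ASP replicate 1 and -0.00 on ASP replicate 2. In the small subunit it was -0.12 and -0.01. Over all probe sets present on 4 arrays these medians were 0.01 and -0.00.

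The ASP arrays thus differed from each other by more than the groups did. The median of replicate 2 minus replicate 1 with ASP was 0.10 in the large and 0.14 in the small subunit, against -0.01 and 0.03 in control. Without ASP replicate 1 the median log2 fold change was -0.01 in the large subunit, with 42 of 80 genes lower, and -0.02 in the small subunit, with 32 of 57 lower. Without ASP replicate 2 it was -0.10 and -0.12, with 66 and 44 genes lower. Over all probe sets the median was -0.03 without ASP replicate 1 and 0.01 without ASP replicate 2.

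Signs of RNA integrity and labelling moved with the arrays too. The probe sets for the 5′ ends of actin, GAPDH and ubiquitin, which are sensitive to shortened RNA, were lower with ASP in 6 of 6, by a median of -0.19. Their median deviation from the mean of the 4 arrays was 0.11 and 0.15 in control, -0.20 on ASP replicate 1 and -0.02 on ASP replicate 2. For the 3′ ends of the same genes 5 of 6 were higher, by a median of 0.04. The hybridisation spike-ins were higher with ASP in 17 of 18 probe sets, by a median of 0.16, and the labelling spike-ins in 21 of 27, by a median of 0.26. Both kinds were lowest on control replicate 2, at median deviations of -0.17 and -0.44, and neither was low on ASP replicate 1. The hybridisation spike-ins were at 0.13 on ASP replicate 1 and at -0.01 on ASP replicate 2, and the labelling spike-ins at 0.14 on both. The part of these differences in the members' values was not tested.

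**Figure D3:**
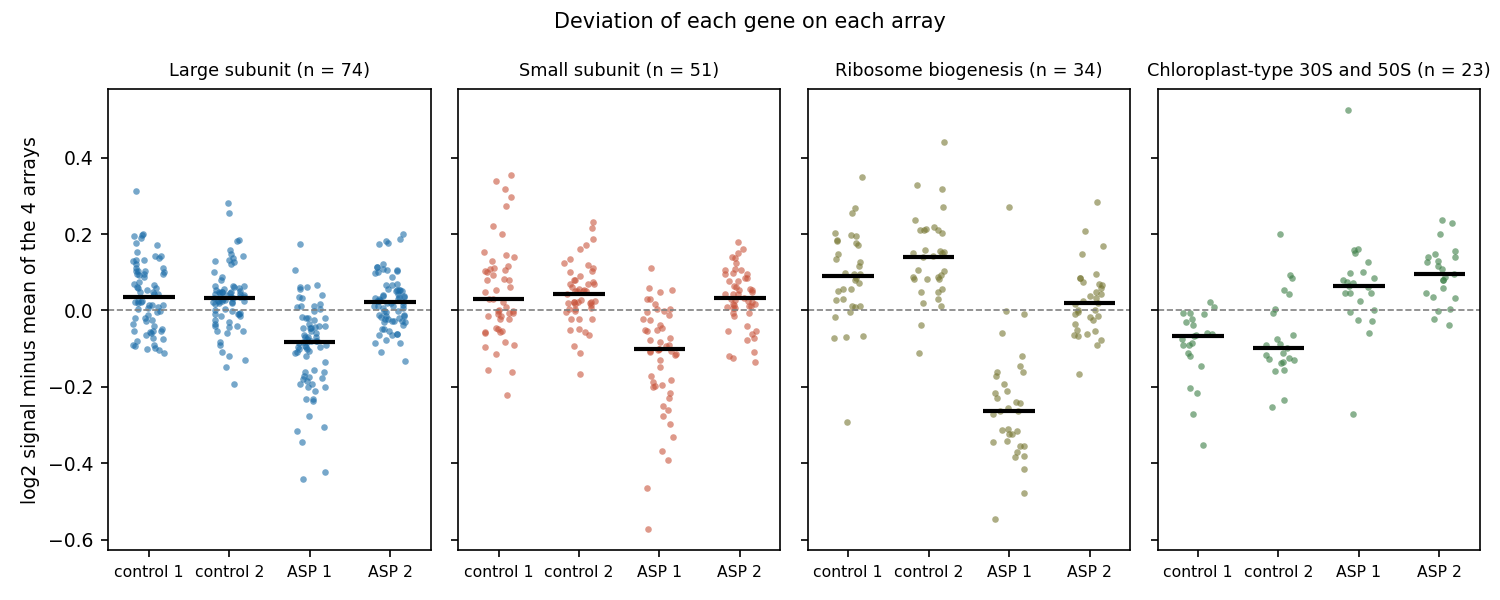
Log2 signal of each gene on each array minus its mean over the 4 arrays, for probe sets present on all 4. Each point is 1 gene and the bar is the median. In both subunits ASP replicate 1 lies lowest, at medians of -0.08 and -0.10, and the other 3 arrays lie at 0.02 to 0.04. In chloroplast-type ribosomal proteins both ASP arrays lie above both control arrays.

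Members with dimmer probe sets had lower means with ASP more often than bright ones, in signal ranges set after the values were seen. Of 25 present members with a mean log2 signal under 12, 23 had a lower mean, with a median log2 fold change of -0.21. From 12 to 13 it was 25 of 34, with a median of -0.08, and at 13 and above 39 of 66, with a median of -0.03. All 12 small-subunit genes under 12 had a lower mean, at a median of -0.23. The large subunit had 11 lower of 13 at a median of -0.14.

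The same relation was weak over the arrays as a whole. Across probe sets, Pearson's r of mean signal with log2 fold change was 0.36 in the large subunit (Spearman's rho 0.29, n = 74) and 0.68 in the small subunit (rho 0.65, n = 51). For the whole array r was 0.04 (n = 14261), and their medians were 0.00 under 12, -0.01 from 12 to 13 and 0.03 at 13 and above. These correlations describe probe sets that share the same 4 arrays and are not independent. The dim members also lay lowest on ASP replicate 1, at a median of -0.34 below the control mean, against -0.06 on ASP replicate 2.

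**Figure D4:**
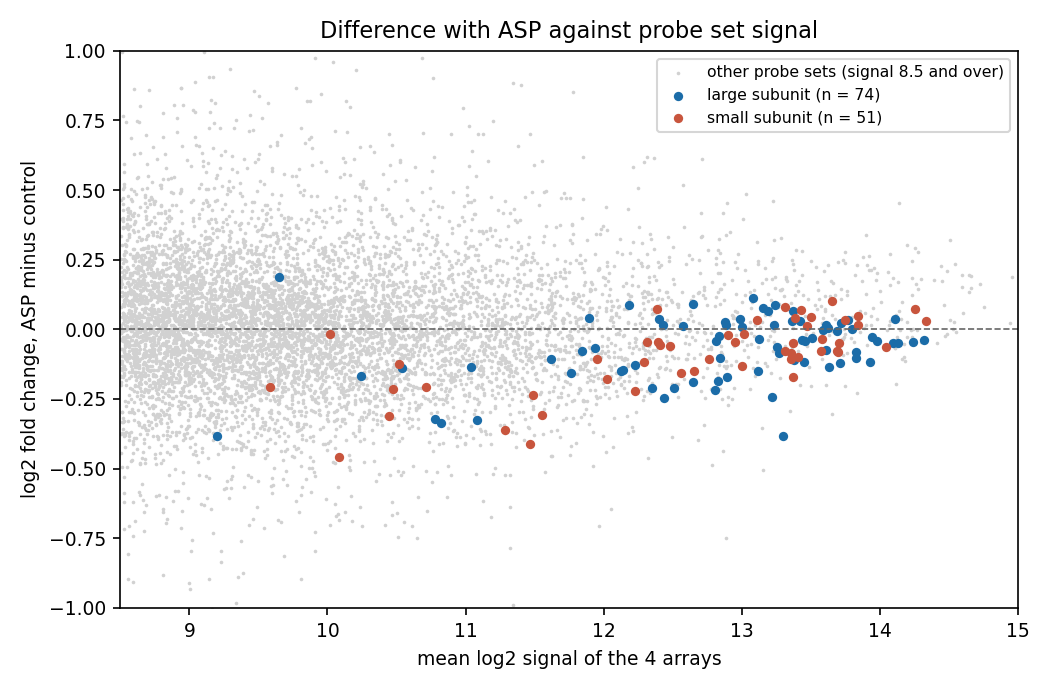
Log2 fold change (ASP minus control, y axis) against the mean log2 signal of the 4 arrays (x axis) for probe sets present on all 4 arrays. Blue points are the large subunit, red points the small subunit and grey points all other probe sets with a mean of at least 8.5. Members under a signal of 12 lie below 0 in 23 of 25 cases, while the medians of all probe sets lie between -0.01 and 0.03 in the same ranges.

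Copies of 1 ribosomal protein did not always share a direction. For 42 proteins at least 2 genes were present on all 4 arrays, 103 genes in all. In 12 of these proteins all measured copies had a lower mean with ASP, in 2 none had, and in 28 the copies were mixed. These counts go by sign alone, also where a log2 fold change was smaller than its SE. Differences between copies were not tested. The range of log2 fold changes within a protein had a median of 0.19 and was under 0.2 in 26 proteins. In 33 of the 42 proteins the copy with the lowest log2 fold change was also the copy with the dimmest probe set. This held in 20 of 26 pairs, 11 of 13 trios and 2 of 3 sets of 4. These genes are among the present members compared by signal above, so the count is not separate from that relation.

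The protein with the widest range was L35, with 4 copies. L35-3 was at -0.38 as given above, L35-2 (AT2G39390) at -0.13, L35-1 (AT3G09500) at -0.04 and L35-4 at 0.09. L35-3 was the dimmest of the 4 and the only one under a log2 signal of 12. In the S2 pair, S2-4 was at -0.36, while S2-3 (AT2G41840) was at 13.79 and 13.85 in control and at 13.74 and 13.99 with ASP, a log2 fold change of 0.05. In the L35a pair, L35a-1 was at -0.32 and L35a-3 (AT1G74270) at 0.04.

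The L17 pair ran from -0.38 for L17-1 to -0.05 for L17-2 (AT1G67430), although both were bright, with every log2 signal between 12.99 and 14.13. The L7 copies ran from -0.32 for L7-1 over -0.08 for L7-4 (AT3G13580) to 0.00 for L7-2 (AT2G01250) and L7-3 (AT2G44120). No member of these 5 proteins had an adjusted p under 0.05 in limma. For 18 members the annotation lists the symbols of several genes, so near-identical copies may share a probe set and their values are uncertain.

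**Figure D5:**
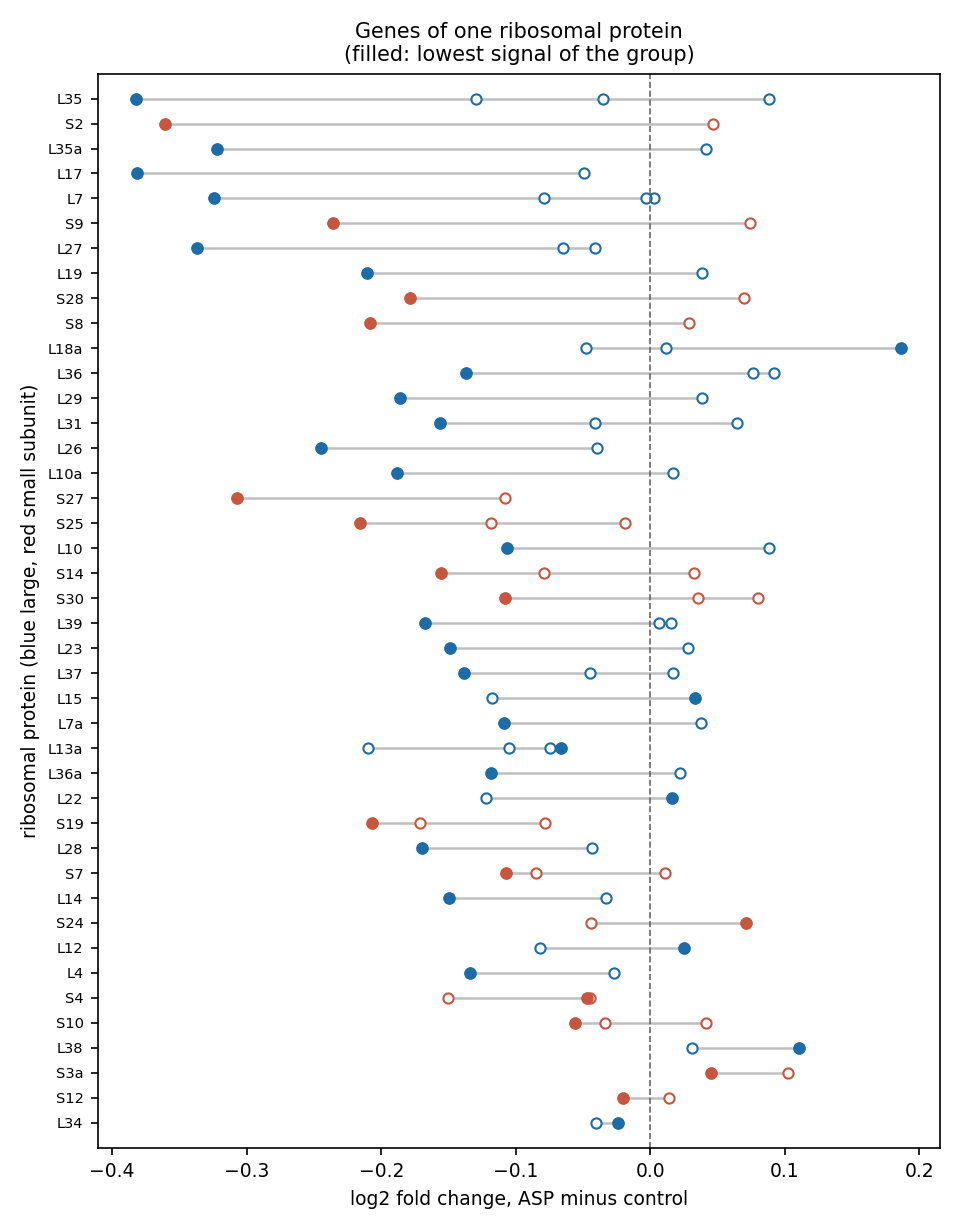
Log2 fold change (ASP minus control, x axis) of the genes of each ribosomal protein with at least 2 genes present on all 4 arrays, ordered by range from top to bottom. Each point is 1 gene, blue for the large and red for the small subunit, and the filled point is the gene with the dimmest probe set. The filled point is the lowest of its line in 33 of 42 proteins.

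At the extremes of signal, the brightest large-subunit probe sets were those of L37-2 (AT1G52300) and L26-1 (AT3G49910). L37-2 was at 14.33 and 14.20 in control and at 14.16 and 14.28 with ASP. L26-1 was at 14.34 on both control arrays and at 14.30 on both ASP arrays, a log2 fold change of -0.04. The brightest of the small subunit were S8-1 (AT5G20290), with a log2 fold change of 0.03, and S9-1, with 0.07. These 4 probe sets differed by less than 0.1 between the groups.

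The 12 members that were not called present on all 4 arrays are given by their signals alone, since a fold of values near background has no clear meaning. These signals ran from 0.05 to 6.68. S15-2 (AT5G09490), S15-6 (AT5G63070) and L8-2 (AT3G51190) were called absent on every array. The dimmest of the large subunit was L37a-1 (AT3G10950), at 4.50 and 1.01 in control and at 1.95 and 1.57 with ASP, and of the small subunit S15-2, at 4.78 and 0.05 in control and at 2.92 and 2.39 with ASP. Both differed by several log2 units between the control arrays alone. L37a-1, S15a-3 (AT2G39590) and L18-1 (AT2G47570) were marginal on 1 array and absent on the others. L27a-1 (AT1G12960) was present on 1 control array and S15-5 (AT5G43640) on 1 ASP array.

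L18-1 was the only one of these genes with both ASP arrays above both controls, at 3.52 and 5.01 in control and at 6.24 and 5.54 with ASP. Its unadjusted p with the intensity trend was 0.0406 and its adjusted p in that limma fit 0.498, and its marginal call came from ASP replicate 1. In the other direction, both ASP arrays lay below both controls in L27a-1, L30-1, L8-2 and S15-6. Of all members, L30-1 had the smallest unadjusted p in limma without the trend, 0.0703, at an adjusted p of 0.711. S15-3 (AT5G09500) was called present on both ASP arrays and on neither control array, at signals of 6.04 and 5.75 in control and of 6.28 and 5.74 with ASP. The groups overlapped, so the difference in calls was not one in signal. L13-2 (AT3G48960), L30-1 (AT1G36240) and S25-1 (AT2G16360) were called present on 2 or 3 arrays, at signals between 4.83 and 6.68.

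Of the S15 family, 5 copies were thus measured, and S15-4 (AT5G09510) alone was present on all arrays, at 11.81 and 11.54 in control and at 10.90 and 11.63 with ASP. ASP replicate 1 lay below both controls, while ASP replicate 2 lay between them. S15-2, S15-3 and S15-4 are next to each other in the gene order of the reference annotation. The genes of L28-1 (AT2G19730), L31-1 (AT2G19740) and S30 (AT2G19750) are also neighbours, at log2 fold changes of -0.04, -0.16 and -0.11. S14-1 (AT2G36160) and L40-1 (AT2G36170), which encodes a ubiquitin fusion, lie side by side as well, at 0.03 and -0.10.

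The members lie on all 5 chromosomes, with 21 on chromosome 1, 24 on chromosome 2, 40 on chromosome 3, 18 on chromosome 4 and 34 on chromosome 5. In the deposited annotation, 69 of 137 members (50.4%) carried the term RNA methylation, against 0.918% of all genes with 1 locus, and 42 (30.7%) the term nucleolus, against 1.48%. The median log2 fold change of members with and without the nucleolus term was -0.05 and -0.07. Such terms often rest on proteomic detection and on shared expression.

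Ribosomal protein genes known for developmental mutants had log2 fold changes close to 0. Of 24 such genes listed, 20 had a probe set of their own, 8 of them under the title rule, and all 20 were present on all arrays. Of the 20, 12 had a lower mean, with a median of -0.02 and a range from -0.20 to 0.11, and 0 passed the test in limma. RPL5B (AT5G39740), whose protein binds the 5S ribosomal RNA, was at 13.12 and 13.20 in control and at 13.15 and 13.31 with ASP. RPL4A (AT3G09630) and RPL4D (AT5G02870), known from mutants with defects in leaf shape and vacuolar sorting, had log2 fold changes of -0.13 and -0.03.

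RPL10B (AT1G26910) was at 11.70 and 11.65 in control and at 11.41 and 11.73 with ASP, so that only ASP replicate 1 lay below both controls. RPL10C (AT1G66580) and RPL28A (AT2G19730) had log2 fold changes of 0.09 and -0.04, and RPS21B (AT3G53890) of -0.10. Among the genes of the same list with other titles, PGY1 (AT2G27530), named for leaf outgrowths of double mutants, was at 13.30 and 13.32 in control and 13.42 and 13.39 with ASP. In 2 of the 20 genes (10%) both ASP arrays lay above both controls and in 4 (20%) below them, against 18.5% and 20.9% of all probe sets. RPL23aB (AT3G55280) was the lowest of the list, at -0.20.

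Other lists of the translation machinery also had medians below 0, from -0.14 for RACK1 to -0.00 for elongation factors. The acidic stalk proteins P0 to P3, which recruit translation factors to the large subunit, had 12 genes measured, 9 with a lower mean, and a median log2 fold change of -0.05. The 3 genes of RACK1, a scaffold on the small subunit, had log2 fold changes of -0.09, -0.14 and -0.15. Initiation factors had 17 of 24 genes with a lower mean and a median of -0.08. Of 11 elongation factor genes only 3 had a probe set of their own. They were eEF2 (AT1G56070) at 0.00 and the eEF1B genes AT5G19510 at 0.01 and AT5G12110 at -0.25. Both ASP arrays lay below both controls in AT5G12110 alone, or 33.3%, against 20.9% of all probe sets. In the TOR pathway 5 of 6 genes were measured, at a median of -0.01, with 3 lower means. No gene of these lists had an adjusted p under 0.05 in limma, with or without the trend. Among the 24 initiation factors, 1 had an unadjusted p under 0.05 and was lower. Over all probe sets 4.09% were lower at that threshold without the trend and 4.78% with it.

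One eIF2 alpha gene, AT5G05470, had the largest difference among the initiation factors. It was at 9.38 and 9.58 in control and at 8.73 and 8.94 with ASP. Both ASP arrays lay below both controls by more than the arrays of either group differed, at a log2 fold change of -0.64 and an adjusted p of 0.173 in limma with the intensity trend. It was singled out after its values were seen. The other eIF2 alpha gene, AT2G40290, was at -0.19.

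Genes for ribosome biogenesis, the factors that transcribe, modify and cut ribosomal RNA and assemble the subunits, had lower means with ASP in 34 of 35 measured genes. Their median log2 fold change was -0.24, and both ASP arrays lay below both controls in 20 of 35, or 57.1%, against 20.9% of all probe sets. None was called in limma, where the smallest adjusted p was 0.323 with the trend. At an unadjusted p under 0.05 with the trend, 7 of 35 were lower and 0 higher, against 4.78% and 4.69% of all probe sets. The list was chosen with earlier results of these data known, so its count is a description. One of the 35, AT3G18610, carries another gene title in the deposited annotation and was called present on 2 arrays.

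NRPA2 (AT1G29940), a subunit of RNA polymerase I, was at 10.20 and 10.21 in control and at 9.69 and 9.91 with ASP. TOZ (AT5G16750), a nucleolar WD-repeat protein, was at 9.88 and 9.77 in control and at 9.26 and 9.57 with ASP. Nucleolin NUC1 (AT1G48920) was at 13.55 and 13.44 in control and at 13.04 and 13.36 with ASP. In all 3 the ASP arrays lay below the controls, at log2 fold changes of -0.41, -0.41 and -0.29. The exception among the 35 was REIL1 (AT4G31420), a late factor of the large subunit, at 0.11.

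As in the ribosomal protein genes, ASP replicate 1 lay lower. The median difference of the 34 biogenesis genes present on all arrays from the control mean was -0.39 on ASP replicate 1 and -0.10 on ASP replicate 2. On ASP replicate 2, 29 of 34 still lay below the control mean. Without ASP replicate 1 the median of the list was -0.10, with 30 of 35 genes lower.

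Chloroplast-type ribosomal proteins went the other way. Of 23 genes titled as 30S or 50S proteins, 21 had a higher mean with ASP, the median log2 fold change was 0.17, and both ASP arrays lay above both controls in 15, or 65.2%, against 18.5% of all probe sets. AT5G24490, titled a putative 30S protein, was at 10.81 and 10.91 in control and at 11.69 and 11.24 with ASP, a log2 fold change of 0.60. L29 (AT5G65220) was at 11.89 and 12.02 in control and at 12.18 and 12.30 with ASP. S13 (AT5G14320) was at 12.14 and 12.11 in control and at 12.35 and 12.40 with ASP, and in all 3 genes the groups did not overlap.

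None of the 23 was called in limma, where the smallest adjusted p was 0.226 with the trend. At an unadjusted p under 0.05, 3 of 23 were higher with the trend, against 4.69% of all probe sets, and 0 without it. The deposited annotation places 1 of the 23, AT5G16200, in the mitochondrion. The 2 ASP arrays were alike in this group, with median differences from the control mean of 0.16 and 0.18. The 2 genes with a lower mean were the 30S protein genes AT5G15760 and AT3G15190, at -0.14 and -0.01.

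Marker genes of the seedling's parts were read beside these groups. Of 5 shoot photosynthetic markers 2 had a probe set of their own, and their summed linear signal was 24013 and 21647 in control and 30763 and 27177 with ASP. All 4 root markers were measured, with sums of 2237 and 1576 in control and of 1072 and 1153 with ASP. The iron transporter gene IRT1 (AT4G19690) was at 8.95 and 8.64 in control and at 6.87 and 7.08 with ASP, and it was called lower in limma with the trend (adjusted p = 0.0177) but not without it. CASP1 (AT2G36100), a gene of the root endodermis, was at 10.26 and 9.38 in control and at 8.98 and 8.92 with ASP, and it was the brightest of the 4 on every array. COBL9 (AT5G49270) and PIN2 (AT5G57090) had groups that overlapped, at log2 fold changes of -0.32 and 0.12. The 2 measured markers of dividing cells summed to 1358 and 1505 in control and to 1324 and 1440 with ASP, overlapping between the groups. The cyclin gene CYCB1;1 (AT4G37490) was at 7.89 and 7.91 in control and at 8.36 and 8.23 with ASP, without overlap, at a log2 fold change of 0.40, while KNOLLE (AT1G08560), the brighter of the pair, was at -0.16 with overlap. Of 4 genes listed for the root meristem 3 were measured, and PLT1 and PLT2 were called present on no array. Both ASP arrays of PLT2 lay below both controls, and the groups of PLT1 overlapped. UPB1 (AT2G47270), a transcription factor gene and the only one of that list present on all arrays, was at 7.07 and 6.87 in control. With ASP it was at 7.97 and 8.09, and the amount of meristem was not read from this gene alone. Its groups did not overlap, at a log2 fold change of 1.06 and an adjusted p of 0.136 in limma with the trend. The part of tissue composition in the ribosomal values was not tested.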

How the data were processed

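The values used were normalized log2 signals and detection calls of present, marginal or absent, which the authors deposited as a workbook. No label or header names the method that made the signals or a genome build. The authors' deposited table of differing probe sets holds a p-value and a ratio (fold change) per probe set, per the file headers. Another 4 per-sample columns, 2 with log2 signals, matched no sample name and were not used. The log2 values of the series matrix differed from the workbook by at most 5e-09.

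After 64 Affymetrix control probe sets were set aside, 22746 probe sets were fitted by lmFit and eBayes of limma 3.58.1 (R 4.3.3), with no trend and two-sided p-values, and with Benjamini-Hochberg adjustment over all of them and a threshold of 0.05. The fit had 2 residual and 1.34 prior degrees of freedom, and 6.06 prior ones with the intensity trend. The number of arrays limits the precision. Of 154 probe sets with a matching title, 17 lacked 1 nuclear locus and were left out. All 137 members were found in a RefSeq gene table (assembly TAIR10.1), which served for names and gene order only.

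Members and lists were chosen with earlier results of these data known. Named genes were, per subunit, the 5 present members with the smallest unadjusted p in each direction, the 2 brightest and 2 dimmest, and those on the list of mutants. The 5 proteins with the widest range over both subunits together and the members not called present on all 4 arrays were also named. Genes of the other lists were picked as examples after their values were seen. Alternatives were the intensity trend, a robust prior, a replicate block, quantile normalization, centring, a present filter, a floor of 50, leaving out each array and an equal-variance t-test. The fit was tested on simulated data. Promoter sequences were not analysed here.

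Same-numbered control and ASP arrays were checked for shared deviations. The correlation across probe sets of their deviations from the group means was 0.00017 over all probe sets and -0.19 over the present members, so the numbers were not treated as pairs.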

Additional observations from a re-analysis of the deposited data

How the results depend on the processing

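No member was called under any alternative run. The count of called probe sets over the whole array was 0 in the plain fit, 72 with the intensity trend, 90 with a robust prior added, 23 among probe sets present on all 4 arrays and 1 with a floor of 50. The replicate block gave 0 called probe sets and the same medians, -0.05 in the large and -0.08 in the small subunit. The numbers mark no stated pairing. Quantile normalization moved the large-subunit median to -0.11, with 63 of 80 genes lower. Leaving out each array in turn gave -0.101 to -0.00541 for that median, -0.340 to -0.0572 for members under a signal of 12, -0.394 to -0.0975 for biogenesis genes, and 0 to 4 lower means among chloroplast-type genes. Over 38 named members with a fold, 338 of 342 log2 fold changes under settings that kept all arrays had the same sign. The exceptions were S8-1 at -0.0449 and L7-2 at -0.0374 under quantile normalization, L7-2 at -0.0184 when centred on present probe sets, and L7-3 at 0.00126 when centred on all probe sets. With an array left out, 21 of 152 reversed, in 16 genes. The log2 fold changes then ran from -0.0449 to 0.229 for L36-3, -0.111 to 0.0210 for L37-2, -0.0672 to 0.272 for S3a-1, -0.00272 to 0.142 for S28-1 (AT5G03850) and -0.0137 to 0.0710 for S8-1. They ran from -0.0131 to 0.147 for RPL5B, -0.0680 to 0.0135 for L4-2, -0.0413 to 0.218 for L10-3, -0.299 to 0.0316 for L4-1 and -0.265 to 0.0524 for L10-2. For L35-1 they ran from -0.0920 to 0.0214, for S2-3 from -0.0793 to 0.173, for L35a-3 from -0.0449 to 0.127, for L7-4 from -0.233 to 0.0741, for L7-2 from -0.100 to 0.106 and for L7-3 from -0.0152 to 0.00951. The cause was not tested. Members not called present were given no fold, and 2 arrays per group limit every value.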
